A study of Mus musculus with 9 samples.

Results

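The genes studied here are the collagen chain genes, taken as every gene whose symbol is Col, a number, the letter a and a number. There were 43 of them among the 19435 genes of the table. GENCODE M21, the mouse annotation of build GRCm38, holds 44 such genes, and Col9a1, the remaining chain of type IX collagen, was not analysed here. The 43 genes lie on 15 chromosomes. All 43 had passed the only filter found in the table, a total of at least 10 reads over the 9 libraries. They were sorted by the structure their chains build into 8 fibrillar, 6 cartilage, 6 basement membrane network, 3 multiplexin and anchoring fibril, 6 other fibril-associated (FACIT), 6 beaded filament, 2 short-chain network and 4 transmembrane chains and 2 others.

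Poly-A RNA was sequenced from 4 primary tumors of the mouse oviduct (tumors 1 to 4, Dicer1ko/D1693N), 3 normal oviducts with 1 mutant allele (oviducts 1 to 3, Dicer1+/D1693N) and 2 wild-type oviducts (oviducts 4 and 5, Dicer1+/+). Dicer1 encodes the RNase that cuts miRNA precursors. D1693N changes the RNase IIIb domain, which makes the cut at the 5p strand, and in the tumors D1693N is the remaining allele beside the ko allele. No treatment was given, and the labels do not state the animals' age or strain, which Cre or cell type made the ko allele, or whether libraries of a group came from separate animals, so the p-values measure the spread between these libraries. Tumor tissue and the loss of the normal Dicer1 allele came together in every library and cannot be told apart.

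Collagens are triple helices of 3 chains, and each type has its own set of chains. Types I, III and V are spun into the banded fibrils of connective tissue, type IV forms the sheet under epithelium and around muscle and vessels, and the FACIT chains sit on fibril surfaces. In the oviduct, fibroblasts and smooth muscle cells of the wall make most of the fibrillar chains. The miR-29 family is known to pair with the 3' untranslated regions (UTRs) of many collagen mRNAs.

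Tumor libraries held 8732190 to 11267144 counted reads and oviduct libraries 8504993 to 12526078. Dicer1 itself ranged from 576 to 1379 normalized counts in tumors and from 904 to 1237 in oviducts, and this total checks neither a point mutation nor a partial deletion. The labelled tissue was checked by its markers. Secretory markers Ovgp1 and Pax8 summed to 998 to 12909 normalized counts in tumors and 79703 to 151781 in oviducts, and 4 ciliated-cell markers to 20 to 480 in tumors and 13642 to 20230 in oviducts. In oviducts and in tumors 1 to 3 most of the secretory sum was Ovgp1, with 8071, 11678 and 8061 normalized counts in those tumors. In tumor 4 Ovgp1 was at 111.5, and most of the sum was Pax8. Ovgp1 was called lower in tumors together with the 4 ciliated-cell markers, and every tumor was below every oviduct for both sums. Pax8 was not called, with 924.5, 1231, 413.2 and 886.5 normalized counts in tumors, against 1559.4, 1515.3, 1587.1, 1161.8 and 1114.2 in oviducts. Tumor 4 stood apart from the other tumors for fat-cell markers, which summed to 15655 there and to 0 to 4.9 in tumors 1 to 3, against 618 to 5110 in oviducts. Tumor 1 stood apart for red cell markers, which summed to 45788 there and to 857 to 1432 in tumors 2 to 4, against 807 to 1612 in oviducts. Macrophage markers summed to 1560 to 10987 in tumors and 1439 to 2015 in oviducts, with 3 of 4 called higher, and skeletal muscle markers to 25.2 to 1114 in tumors and 16.9 to 105 in oviducts, with 1 of 4 called higher. The part of these cells in the collagen values was not tested.

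Many collagen mRNAs carry the letters TGGTGCT in their 3' UTR, which pair with bases 2 to 8 (the seed) of the miR-29 family. The mature miRNAs are shown with the seed in capitals, from RefSeq (GRCm38.p6), because all 3 share it. Levels of these miRNAs were not measured in these libraries.
mmu-miR-29a-3p (chr6:31062673-31062694, minus strand): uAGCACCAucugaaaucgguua
mmu-miR-29b-3p (chr1:195037091-195037113, plus strand): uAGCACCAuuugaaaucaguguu
mmu-miR-29c-3p (chr1:195037600-195037621, plus strand): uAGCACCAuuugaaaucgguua

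The first match in each of 9 members is shown next, 5' to 3' on the mRNA strand, with the match in capitals and flanking UTR bases in lower case. They were picked, with the results known, as genes with a match and large differences without overlap between tumors and oviducts. Coordinates are of GRCm38.
Col1a1 (chr11:94952522-94952549, plus strand): ggtgggaaggaatttcTGGTGCTataga
Col3a1 (chr1:45348966-45348993, plus strand): cttcaaaatgtctcaaTGGTGCTataat
Col5a1 (chr2:28037988-28038015, plus strand): aataactatgaacattTGGTGCTgaatt
Col5a2 (chr1:45374961-45374988, minus strand): acttttcttttaatgaTGGTGCTaaaat
Col24a1 (chr3:145551194-145551221, plus strand): tccttttggtgttgctTGGTGCTgtctc
Col11a1 (chr3:114219067-114219094, plus strand): cctatttggatttcgtTGGTGCTgtaga
Col4a1 (chr8:11199757-11199784, minus strand): tgccaccgtcacaacaTGGTGCTactcc
Col4a2 (chr8:11448343-11448370, plus strand): tgtgggaaggccacgtTGGTGCTtatcc
Col7a1 (chr9:108984579-108984606, plus strand): cctgctgtgctccattTGGTGCTagagt

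Of the 43 collagen genes, 24 (55.8%) had TGGTGCT in the annotated 3' UTR, against 2332 of 15712 genes with a 3' UTR of at least 50 bases (14.8%), and the median UTR was 1049 bases in the collagen genes and 1108 in all genes. All 6 basement membrane network genes and 7 of the 8 fibrillar genes had it. The exception among the fibrillar genes was Col1a2. The let-7 seed match CTACCTC was found in 9 collagen genes (20.9%), against 10.1% of all genes. Such a match is a description of the letters in the UTR and does not show that a miRNA binds there.

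Collagen mRNA as a whole made up a larger share of the tumor libraries. Reads on the 43 genes were 1.90, 1.82, 2.10 and 1.69% of all counted reads in tumors 1 to 4, against 0.425, 0.380, 0.290, 0.670 and 0.480% in oviducts 1 to 5. The lowest tumor was above the highest oviduct by more than the spread within either group, and the mean was 4.18 times as high (1.88 ± 0.174% in tumors and 0.449 ± 0.142% in oviducts, SD, n = 4 and 5). No p-value is given for a sum over chosen genes. In whole tissue, a change in the number of cells of a type and a change in RNA per cell cannot be told apart.

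The makeup of collagen reads also differed. Chains of types I and III were 53.1, 68.4, 57.4 and 60.9% of collagen reads in tumors 1 to 4, against 37.8, 36.9, 34.8, 52.8 and 47.0% in oviducts 1 to 5. Every tumor was above every oviduct here, although tumor 1 exceeded oviduct 4 by little. Beaded filament chains (type VI) were 9.13 ± 1.74% in tumors and 21.2 ± 2.42% in oviducts (SD, n = 4 and 5), with no overlap, although their share of all reads was higher in every tumor than in every oviduct (0.173 ± 0.0444% in tumors and 0.0929 ± 0.0201% in oviducts, 1.86 times as high). The basement membrane network took 11.8 ± 4.1% in tumors and 12.7 ± 1.02% in oviducts, and its ranges overlapped.

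**Figure D1:**
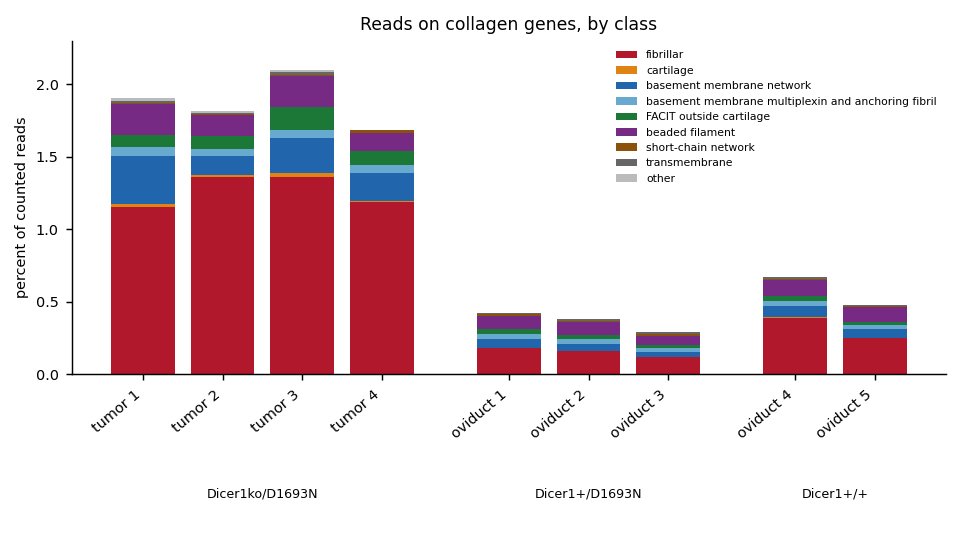
Share of counted reads on collagen genes in each library, in percent, stacked by class, with tumors on the left and the oviduct genotypes to their right. The 4 tumor bars reach 1.69 to 2.10% and the 5 oviduct bars 0.290 to 0.670%, and the fibrillar class fills most of each tumor bar.

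Each gene was then compared between the 4 tumors and the 5 oviducts on the deposited log2 scale (limma, two-sided, Benjamini-Hochberg over 19435 genes), and a gene counts as called where the adjusted p is below 0.05 and the log2 change is 1 or more in size. Of the 43 collagen genes, 18 were called higher in tumors and 1 lower, and 24 were not called. Of the 19435 genes of the table, 6.53% were called higher and 12.1% were called lower. In 19 collagen genes every tumor was above every oviduct and in 1 gene every tumor was below, against 10.8% and 16.8% of all genes. The median change of the 43 genes was 0.94, beside a median of -0.05 over all genes. Changes are given as log2 ± SE on this scale, which understates the change of genes with few reads.

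**Figure D2:**
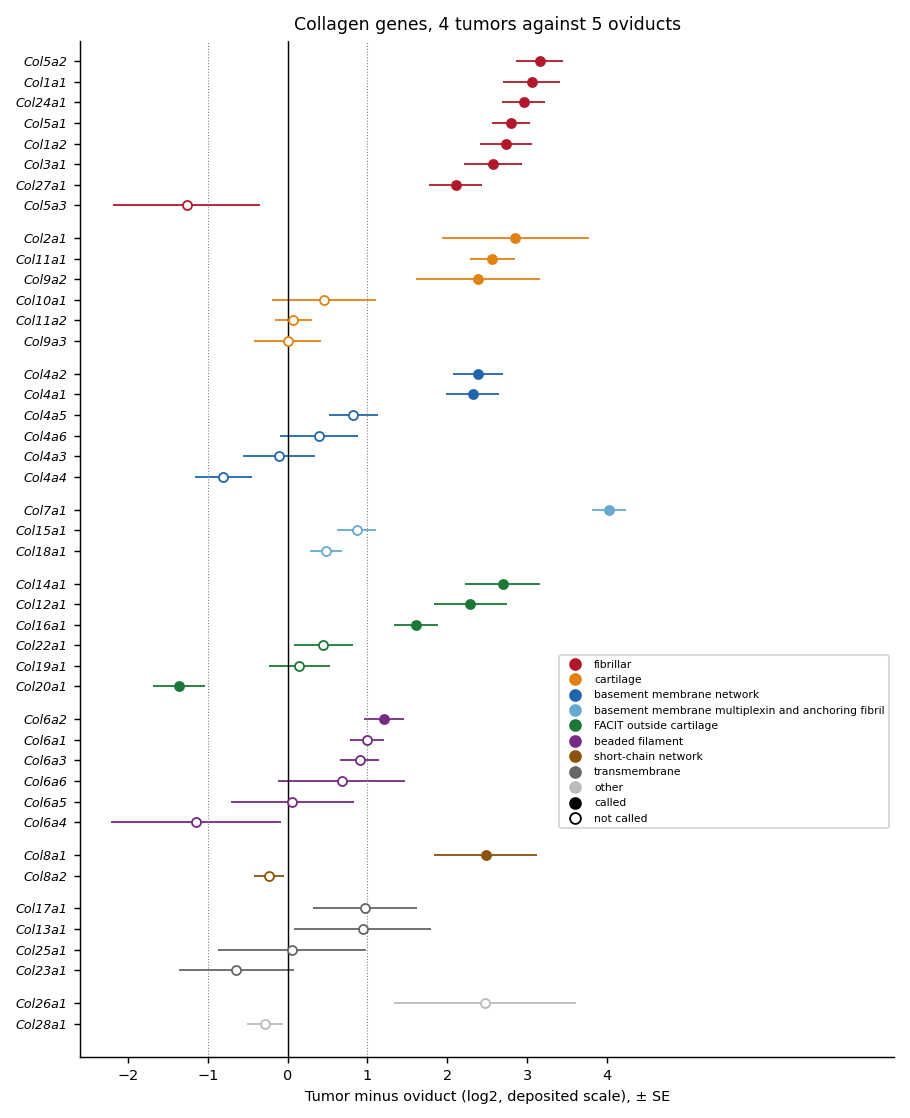
Change of each collagen gene, tumor minus oviduct, in log2 units of the deposited scale with its SE, by class. Filled points are called genes and dotted lines mark a change of 1 in size. Of 8 fibrillar genes 7 lie right of 2, Col7a1 lies furthest right at 4.02, and Col20a1 is the filled point on the left.

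Fibrillar chains were the class with the most uniform difference. Of its 8 genes 7 were called higher in tumors, with a class median of 2.76, and in those 7 genes every tumor was above every oviduct. Col1a1 and Col1a2 encode the chains of type I collagen, the main fibril of skin, bone and connective tissue. Col1a1 (chr11:94936224-94953042, plus strand) had 32946, 47256, 41698 and 33957 normalized counts in tumors 1 to 4, against 3822, 3819, 2433, 9495 and 6209 in oviducts 1 to 5. Normalized counts are reads divided by the library's size factor. The lowest tumor was more than 3 times the highest oviduct, oviduct 4, and the means differed 7.56-fold (log2 change 3.06 ± 0.36, adjusted p = 0.000136). Col1a2 (chr6:4504814-4541544, plus strand) had 38817, 38158, 44036 and 33720.2 in tumors, against 5390.3, 4716, 3182, 10577 and 7476 in oviducts. It differed 6.17-fold (2.73 ± 0.32, adjusted p = 0.000138), again with no overlap and again with oviduct 4 as the highest oviduct.

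Type III and type V chains, which copolymerize with type I, were higher in tumors with the exception of Col5a3. Col3a1 had 38957, 43884, 32849 and 43039 normalized counts in tumors, against 6040.0, 4631, 3864, 14679 and 7955 in oviducts. The groups did not overlap, and the means differed 5.34-fold (2.57 ± 0.36, adjusted p = 0.00044). Col5a1, whose product starts fibril assembly and limits fibril width, had 7337, 5127, 7776 and 6270.0 in tumors, against 929.8, 766, 597, 1358 and 1176 in oviducts (2.79 ± 0.24, adjusted p = 1.58e-05). Its partner chain Col5a2 had 7532, 6602, 5939 and 9208 in tumors, against 758, 624, 517, 1656 and 751 in oviducts (3.16 ± 0.30, adjusted p = 2.87e-05). Col5a2 lies on chromosome 1 in the opposite direction to Col3a1, with 24614 bases between them. The third chain of type V, Col5a3, had 262, 87.4, 10.1 and 1669 in tumors, against 304, 369, 465, 562 and 596 in oviducts, and was the fibrillar gene that was not called (-1.27 ± 0.92, adjusted p = 0.329). Tumors 1 to 3 were below the lowest oviduct for Col5a3 and tumor 4 was above the highest.

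The minor fibrillar genes Col24a1 and Col27a1 encode long chains of types XXIV and XXVII, known from developing bone and cartilage. Col24a1 had 175, 159, 336 and 217 normalized counts in tumors, against 10, 11.2, 9, 23.6 and 11.2 in oviducts, a 17-fold difference of means (2.96 ± 0.27, adjusted p = 2.32e-05). Col27a1 had 577, 713, 1468 and 372 in tumors, against 161, 168, 117, 178 and 112 in oviducts (2.10 ± 0.33, adjusted p = 0.000957). Neither gene overlapped between the groups. Fibroblast markers moved in part with this class. They summed to 13575 to 17371 normalized counts in tumors and 6148 to 14387 in oviducts, where oviduct 4 was highest, and 3 of 8 were called higher (Pdgfra, Pdgfrb and Fbln1). The smooth muscle sum was 2796 to 68902 in tumors and 31738 to 71737 in oviducts, with 2 of 6 markers called lower. The part of these cell types in the collagen differences was not tested.

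**Figure D3:**
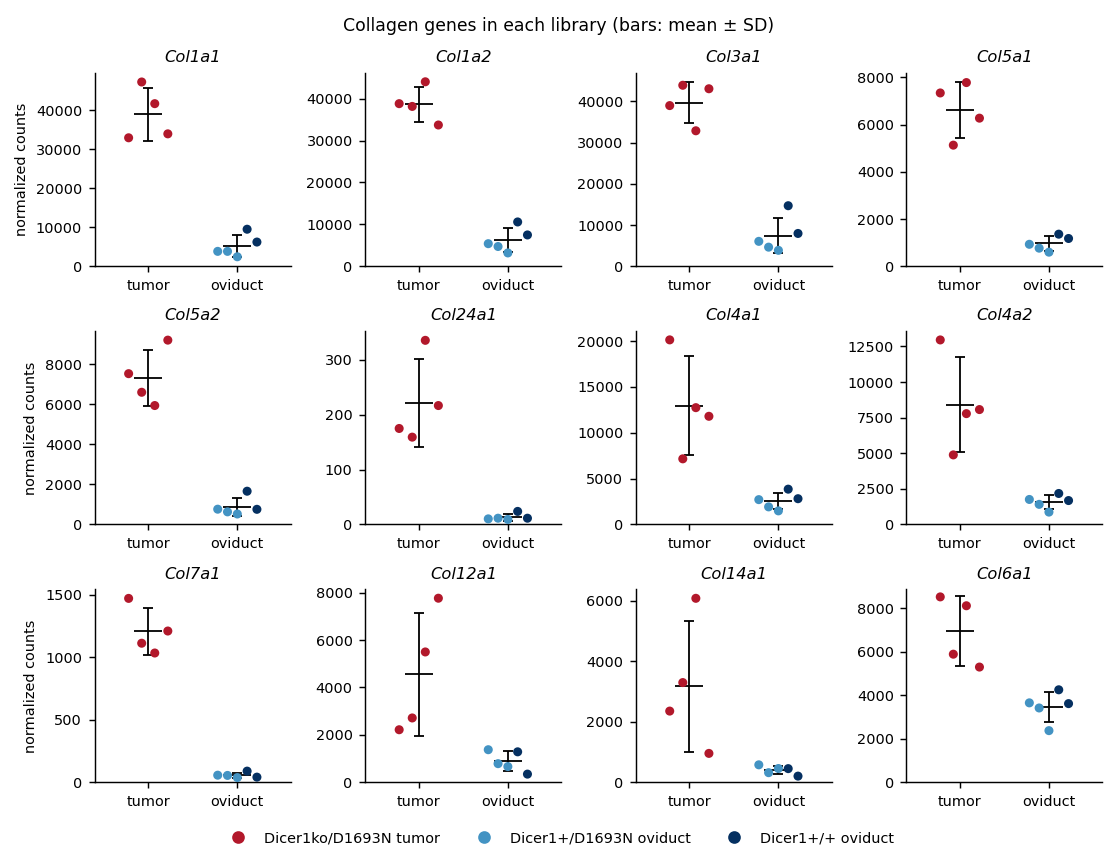
Normalized counts of 12 collagen genes in each library, on linear axes that start at 0, with tumors left of oviducts and the mean ± SD of each group in black. For Col1a1 the tumors sit at 32946 to 47256 and the oviducts at 2433 to 9495, and for Col6a1 the gap between the groups is narrower.

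Per kilobase of transcript, which allows levels of different genes to be set side by side, type I and III chains led in both tissues. In tumors Col1a2 had 7233 ± 790, Col3a1 7132 ± 905 and Col1a1 6571 ± 1142 normalized counts per kilobase (SD, n = 4), and these 3 did not differ beyond their spread. Col4a1 (1959 ± 812), Col6a1 (1698 ± 391), Col6a2 (1580 ± 497), Col4a2 (1306 ± 519) and Col5a2 (1105 ± 214) came next in tumors, each within the spread of its neighbours. In oviducts the order was Col3a1 (1336 ± 780), Col1a2 (1172 ± 535), Col1a1 (869 ± 469), Col6a1 (846 ± 167) and Col6a2 (676 ± 172), SD, n = 5. These means lie within or close to the SD of their neighbours, but within libraries Col1a1 was below both Col1a2 and Col3a1 in all 5 oviducts, with a Col1a1 to Col1a2 ratio per length of 0.640 to 0.810 and a Col3a1 to Col1a1 ratio of 1.29 to 1.69. Col5a2 stood in place 8 in tumors and in place 13 in oviducts.

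In the cartilage class, 3 of 6 genes were called higher, with a class median of 1.42. Col11a1, a chain of type XI that is also made outside cartilage, had 252, 286, 284 and 418 normalized counts in tumors, against 50.2, 62.9, 24.9, 35.4 and 17.9 in oviducts (2.57 ± 0.28, adjusted p = 8.39e-05). All tumors were well above all oviducts. Col2a1, the chain of the main cartilage fibril, had 867, 17, 127 and 3.2 in tumors, against 1.1, 2.2, 1, 0 and 0 in oviducts (2.85 ± 0.92, adjusted p = 0.0385). Tumor 1 carried most of it, and tumor 4 was at 3 reads, close to the oviducts. Col9a2, a chain of type IX that coats type II fibrils, had 1001, 885, 2219 and 71.5 in tumors, against 123, 174, 174, 62.9 and 51.4 in oviducts (2.39 ± 0.78, adjusted p = 0.0404), and tumor 4 fell inside the oviduct range.

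The last 2 calls rest on few libraries. Col2a1 was not called without tumor 3 or any 1 oviduct, where its adjusted p reached 0.0787, nor by limma-voom (5.65, adjusted p = 0.0663). Col9a2 was not called without tumor 1, 2 or 3 or any 1 oviduct, where its adjusted p reached 0.0955, nor by limma-voom (adjusted p = 0.102). The other cartilage genes were not called. Col11a2 had 16.9 to 38.8 normalized counts in tumors and 21 to 33 in oviducts, and Col9a3 had 3.2 to 70.9 in tumors and 12 to 19 in oviducts. Col10a1, the chain of hypertrophic cartilage, had 0, 3.4, 0 and 106 in tumors, against 2.2, 4.5, 5, 0 and 2.2 in oviducts, so that it was clearly present in tumor 4 alone. Of the cartilage-cell markers in the table, Acan had 12.6, 10.2, 19.1 and 54.7 normalized counts in tumors, against 4.5, 6.7, 1, 0 and 2.2 in oviducts, and Hapln1 111, 40.9, 151 and 2.1 in tumors, against 11.2, 4.5, 0, 7.1 and 3.3 in oviducts. Both were called higher, while Cnmd was called lower and Matn3, at 0 in all oviducts, was not called.

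The basement membrane network divided by chain pair. Col4a1 and Col4a2, the chains found in nearly all basement membranes, were called higher, and the other 4 chains were not. Col4a1 (chr8:11198423-11312826, minus strand) had 20137, 7152, 12739 and 11795 normalized counts in tumors, against 2698, 1908, 1472, 3841 and 2800.1 in oviducts (2.32 ± 0.33, adjusted p = 0.000509). Col4a2 (chr8:11312805-11449287, plus strand) had 12958, 4879.6, 7779.7 and 8065 in tumors, against 1749, 1405, 862, 2169.5 and 1672 in oviducts (2.38 ± 0.31, adjusted p = 0.00027). Tumor 1 was highest and tumor 2 lowest for both, and no tumor overlapped an oviduct. This pair runs in opposite directions from starts that overlap by 22 bases.

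Col4a3, Col4a4, Col4a5 and Col4a6, which have narrower distributions such as kidney glomerulus and smooth muscle, showed no call in either direction. Col4a5 had 1667, 893, 1855 and 657 normalized counts in tumors, against 658, 608, 527, 983 and 549 in oviducts (0.82 ± 0.31, adjusted p = 0.0665). Its neighbour Col4a6, which starts 1308 bases away on the X chromosome, had 694, 471, 882 and 134 in tumors, against 383, 389, 265, 578 and 189.8 in oviducts (0.39 ± 0.49, adjusted p = 0.582). Tumor 4 was the lowest tumor for both genes. Col4a3 had 109.7, 61.3, 116 and 9.5 in tumors, against 74.8, 52.4, 41.8, 82.5 and 81.5 in oviducts, and Col4a4 had 179, 88.6, 233 and 46.3 in tumors, against 257, 228, 185, 187 and 258 in oviducts (-0.81 ± 0.36, adjusted p = 0.113). These 2 genes run apart from starts separated by 71 bases, and tumor 4 was lowest for both.

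Endothelial cells are a source of type IV collagen, and their 6 markers summed to 4117 to 8572 normalized counts in tumors and 1839 to 3060 in oviducts, with 4 of 6 called higher. The sum was highest in tumor 1, as were Col4a1 and Col4a2, and it was lowest in tumor 4. Its part in the difference was not tested.

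Among multiplexins and the anchoring fibril chain, 1 of 3 genes was called higher. Col7a1 (chr9:108953586-108984875, plus strand) encodes the chain of the anchoring fibrils that tie epithelial basement membrane to the stroma below. On the deposited log2 scale it had the largest change of all 43 collagen genes. By limma-voom the change of Col2a1 was larger (5.65 against 4.41), though Col2a1 was not called there. Col7a1 had 1471, 1113, 1035 and 1210.5 normalized counts in tumors, against 58, 56.1, 38.8, 90.4 and 42.4 in oviducts. The means differed 21.1-fold (4.02 ± 0.21, adjusted p = 1.38e-06), the tumors lay close together, and the lowest tumor was more than 10 times the highest oviduct. Epithelial markers summed to 8880 to 18082 in tumors and 15463 to 21588 in oviducts, with 1 of 5 called lower. Col15a1, a chain of the vessel and muscle surface, had 2779, 1703, 1572 and 3317 in tumors, against 1277, 1028, 941, 1405 and 1521 in oviducts, with an adjusted p of 0.0217 but a change under 1 (0.87 ± 0.24). Col18a1, the precursor of endostatin, had 1622 to 2972 in tumors and 1209 to 2113 in oviducts (0.48 ± 0.20, adjusted p = 0.0994).

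Upstream sequence was compared by letters as well. In the 250 bases before the start, 21 of the 34 collagen genes in the RefSeq promoter set used here held the GC box GGGCGG on either strand (61.8%), against 32.9% of 27025 promoters. That set lacked Col1a1, Col2a1, Col4a3, Col5a2, Col9a3, Col12a1, Col14a1, Col22a1 and Col26a1. It was not limited to genes of the table, so its share is not that of the genes tested here. CCAAT, on either strand, was in 35.3% of the collagen promoters and 34.5% of all, and TATAA in 17.6% of the collagen promoters and 23.5% of all. The motifs do not share their full letters, and a match is not a bound site. The last 120 bases before the start are shown for Col7a1, the gene with the largest change, and for Col5a1, a fibrillar gene with a small SE, with GGGCGG in capitals.
Col7a1 (chr9:108953466-108953585, plus strand): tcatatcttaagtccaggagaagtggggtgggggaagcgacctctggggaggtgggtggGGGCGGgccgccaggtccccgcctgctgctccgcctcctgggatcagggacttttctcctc
Col5a1 (chr2:27886305-27886424, plus strand): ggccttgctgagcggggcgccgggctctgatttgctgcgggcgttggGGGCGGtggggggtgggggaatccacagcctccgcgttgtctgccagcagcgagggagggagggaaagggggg

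The FACIT genes outside cartilage moved in both directions, with 3 of 6 called higher and 1 called lower. Col12a1 and Col14a1 encode the chains of types XII and XIV, which decorate type I fibrils. Col12a1 had 2220.0, 2716, 5496 and 7760.1 normalized counts in tumors, against 1379, 791, 669, 1289.9 and 351 in oviducts (2.29 ± 0.46, adjusted p = 0.00374). Col14a1 had 2356, 3298, 6079.7 and 959 in tumors, against 582, 323, 459.7, 456 and 209 in oviducts (2.69 ± 0.47, adjusted p = 0.00169). Neither overlapped, yet the tumors ranked differently, since tumor 4 was highest for Col12a1 and lowest for Col14a1. Col16a1 had 3895, 2895, 4464 and 1676 in tumors, against 1029, 986, 698, 1309.5 and 977 in oviducts (1.61 ± 0.28, adjusted p = 0.00166), also with no overlap.

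Col20a1, a FACIT chain with few reads, was the 1 collagen gene called lower. It had 22.3, 77.2, 66.4 and 20 normalized counts in tumors, against 126.1, 142, 144, 178 and 94.9 in oviducts, and every tumor was below every oviduct (-1.36 ± 0.33, adjusted p = 0.0103). Col19a1 had 17.5, 0, 0 and 0 in tumors, against 2.2, 0, 0, 0 and 3.3 in oviducts, and Col22a1 had 7.8, 19.3, 0 and 3.2 in tumors, against 0, 2.2, 6, 3.1 and 0 in oviducts. Both were near or below the limit that 0 reads allow (3 reads, at most 3.41 normalized counts in a tumor and 3.35 in an oviduct, covering counting error only) in most libraries, and neither was called.

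Of the 6 type VI chains of the beaded filament, 1 was called higher. Col6a1 and Col6a2 encode partner chains of the microfibril around most mesenchymal cells. Col6a2 had 6184, 5659, 8904 and 4209 normalized counts in tumors, against 2429, 2551, 1716, 3249.5 and 3399.6 in oviducts, and was called higher (1.21 ± 0.25, adjusted p = 0.00505), although not after quantile normalization (0.991). Col6a1 had 8530.4, 5896, 8123 and 5304 in tumors, against 3659, 3424, 2382, 4259.5 and 3624 in oviducts. Every tumor was above every oviduct for both, but the change of Col6a1 was just under the size needed for a call (0.996 ± 0.21, adjusted p = 0.00539). Col6a3 had 4856, 2384, 3301 and 3255 in tumors, against 2149.9, 1547, 1203, 2399.8 and 1848 in oviducts, with a single overlap between tumor 2 and oviduct 4 (0.90 ± 0.24, adjusted p = 0.0178).

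The remaining 3 type VI genes can take the place of Col6a3 in the trimer and lie side by side on chromosome 9. Col6a4 had 2279, 1024, 54 and 25.2 normalized counts in tumors, against 545, 618, 281, 1113 and 967 in oviducts. Col6a5 had 84.5, 47.7, 0 and 298 in tumors, against 49.1, 28.4, 80.6, 47.9 and 42.4 in oviducts. Col6a6 had 1357, 468, 30.4 and 135 in tumors, against 274, 149.7, 98.5, 177 and 92.7 in oviducts. None was called, and the tumors were scattered over a range far wider than the oviducts, with tumor 1 highest for Col6a4 and Col6a6 and tumor 4 highest for Col6a5. Tumor 3 was lowest for Col6a5 and Col6a6.

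The short-chain network genes differed from each other. Col8a1, a type VIII chain of vessel walls and corneal membrane, had 316, 206, 64.2 and 1382 normalized counts in tumors, against 41.3, 47.2, 44.8, 21.2 and 30.1 in oviducts (2.48 ± 0.64, adjusted p = 0.0146). Its partner Col8a2 had 575, 592, 919.8 and 711 in tumors, against 740.1, 879, 1086, 655 and 752 in oviducts (-0.23 ± 0.19, adjusted p = 0.38). All tumors were above all oviducts for Col8a1 and the groups overlapped for Col8a2. Tumor 4 held the most Col8a1 of the tumors and tumor 3 the least, and limma-voom did not call it (adjusted p = 0.0556).

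No transmembrane collagen was called. Col13a1 had 283, 176, 229.7 and 0 normalized counts in tumors, against 55.8, 30.7, 19.9, 59 and 41.3 in oviducts (0.94 ± 0.86, adjusted p = 0.44). Col17a1, part of the hemidesmosome, had 238, 28.4, 2.3 and 12.6 in tumors, against 8.9, 14.2, 8, 11 and 3.3 in oviducts (0.97 ± 0.65, adjusted p = 0.285). Tumor 4 had no read of Col13a1, and tumor 1 held nearly all of Col17a1. Col23a1 had 705, 437, 1439 and 46.3 in tumors, against 776, 788, 822, 407 and 525 in oviducts, and Col25a1 had 493, 60.2, 415 and 6.3 in tumors, against 52.5, 54.7, 62.7, 401 and 237 in oviducts. Tumor 4 was lowest for both, and for Col25a1 both Dicer1+/+ oviducts were above all 3 Dicer1+/D1693N oviducts. The last genes are Col26a1, first found in testis and ovary, and Col28a1. Col26a1 had 2136, 1129.9, 1416 and 5.3 in tumors, against 94.9, 101, 57.7, 69.2 and 58.1 in oviducts (2.47 ± 1.14, adjusted p = 0.125). It was far above the oviducts in tumors 1 to 3 and below them in tumor 4. Col28a1 had 10.2 to 15.8 in tumors and 13.4 to 27.9 in oviducts and was not called (-0.28 ± 0.22, adjusted p = 0.362).

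**Figure D4:**
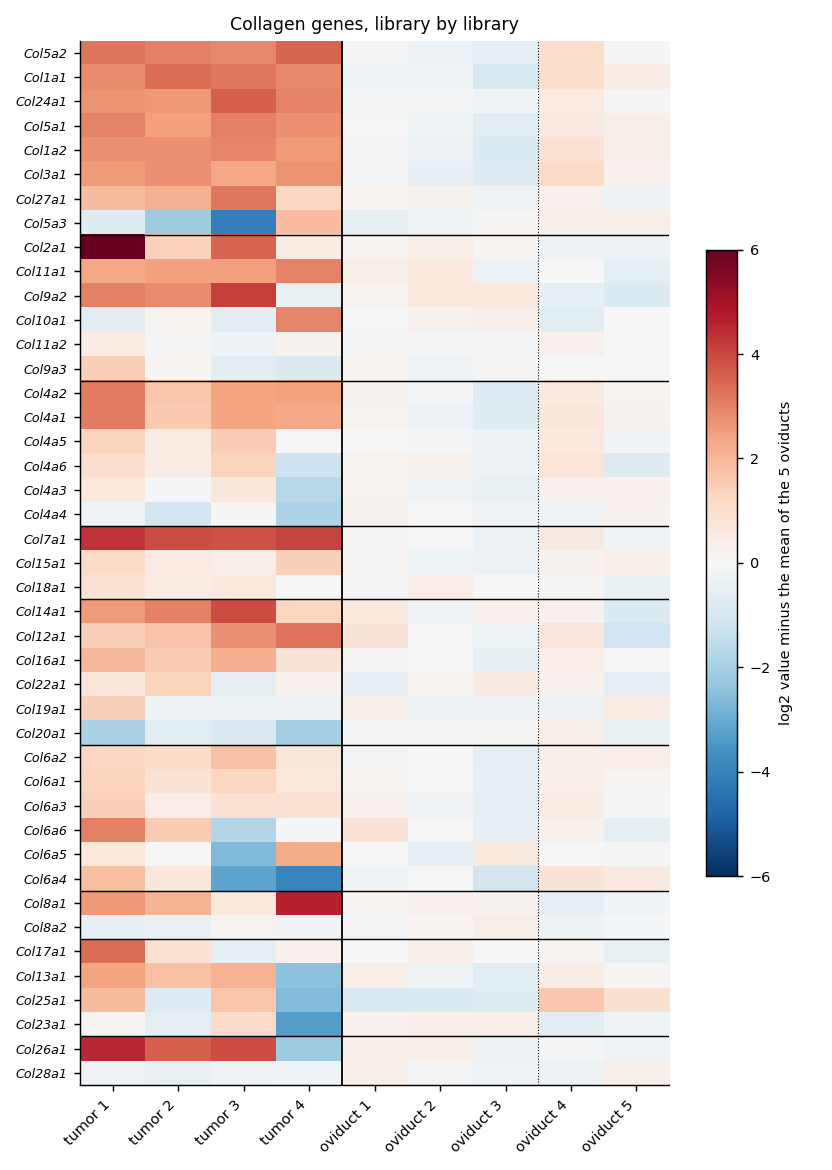
Log2 value of each collagen gene in each library minus its mean over the 5 oviducts, in rows by class, with tumors left of oviducts. Red is above and blue below the oviduct mean, and the scale is limited to 6 in either direction. The fibrillar rows are red in all 4 tumors except Col5a3, and tumor 4 has blue cells for Col13a1, Col23a1, Col25a1 and Col26a1.

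The range over libraries was wider in tumors than in oviducts for 32 of 43 collagen genes (74.4%), near the 80.1% of all genes. Tumor 4 was the lowest tumor for 20 of 43 (46.5%), against 24.9% of the 19008 genes with a read in any tumor. Tumor 1 was the highest for 16 of 43 (37.2%), against 26.8% of those genes. Ties were counted for the lower-numbered tumor, so genes at 0 in several tumors were never counted as lowest in tumor 4. Type I and III chains varied little among tumors, with log2 ranges of 0.38 for Col1a2, 0.42 for Col3a1 and 0.52 for Col1a1, beside 1.73, 1.92 and 1.96 for the same genes in oviducts. Col26a1 ranged over 6.66 in tumors and 0.65 in oviducts.

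Without tumor 4, 22 collagen genes were called higher and 2 lower, and none of the 19 calls was lost. The added genes were Col26a1 (4.01, adjusted p = 4.67e-06), Col13a1 (2.07, adjusted p = 0.000496), Col4a5 (1.09, adjusted p = 0.0109), Col6a1 (1.12) and, called lower, Col5a3 (-2.31, adjusted p = 0.0145). Leaving out each of the other libraries in turn gave 16 to 19 genes called higher.

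Levels of chains of the same trimer or of related types were compared as ratios within each library, which do not depend on library size. Not every pair shares a trimer, so a ratio need not be a proportion within 1 trimer. Of 11 ratios tested by an exact two-sided permutation test over 4 tumors and 5 oviducts (2 times the smaller tail, smallest possible p 0.0159), 0 passed Benjamini-Hochberg adjustment over the 11, and 4 had an unadjusted p under 0.05. Even at the smallest possible p, a ratio passes the adjustment only if several others reach it as well. The groups did not overlap for Col4a5 to Col4a1 and for Col8a1 to Col8a2, and both were at the smallest possible p. The log2 ratio of Col4a5 to Col4a1 was -3.59, -3.001, -2.78 and -4.16 in tumors, against -2.04, -1.65, -1.48, -1.96 and -2.35 in oviducts (difference -1.49, exact permutation p = 0.0159, adjusted p = 0.0873). Col8a1 to Col8a2 was -0.86, -1.52, -3.82 and 0.96 in tumors, against -4.13, -4.20, -4.57, -4.90 and -4.59 in oviducts (difference 3.17, exact permutation p = 0.0159, adjusted p = 0.0873). When the two-sided p counts the splits with a difference as large in size, whatever its sign, a form added after the data were seen, both had p = 0.00794 and an adjusted p of 0.0437 by the exact permutation test.

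Col4a1 to Col4a2 per length was 1.49 ± 0.08 in tumors and 1.57 ± 0.16 in oviducts (SD, n = 4 and 5; exact permutation p = 0.460). Col1a1 to Col1a2 per length was 0.911 ± 0.149 in tumors and 0.724 ± 0.064 in oviducts, and its log2 difference of 0.32 did not pass the adjustment (exact permutation p = 0.0317, adjusted p = 0.0873). Col3a1 to Col1a1 per length was 1.11 ± 0.24 in tumors and 1.54 ± 0.19 in oviducts, a log2 difference of -0.49 with the same adjusted value (exact permutation p = 0.0317, adjusted p = 0.0873). Col6a1 to Col6a2 differed by -0.21 on the log2 scale and Col5a1 to Col5a2 by -0.37, and the remaining ratios by -0.24 (Col5a1 to Col1a1), 0.45 (Col4a5 to Col4a6), -0.09 (Col6a3 to Col6a1) and 0.28 (Col11a1 to Col5a1), with adjusted p of 0.349 to 0.619 by the exact permutation test. Col4a3 to Col4a4 had fewer than 10 reads of a chain in 1 library and was not tested.

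**Figure D5:**
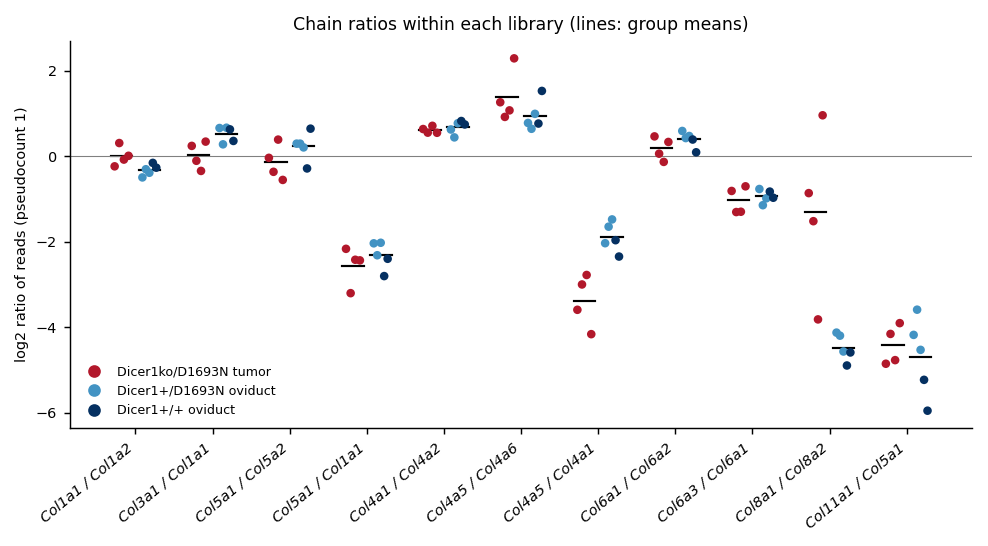
Log2 ratio of reads of chain pairs in each library, with 1 read added to each chain, tumors left of oviducts in each pair and lines at group means. Col4a5 to Col4a1 and Col8a1 to Col8a2 are the pairs whose groups are furthest apart, while the mean of Col4a1 to Col4a2 is 0.61 in tumors and 0.68 in oviducts.

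Against each oviduct genotype on its own, in a model of 3 groups that share 1 spread, the result was similar. These comparisons share the 4 tumors. Against Dicer1+/D1693N oviducts, which carry the same D1693N allele, 18 collagen genes were called higher in tumors and 1 lower, beside 5.17% and 11.4% of all genes. Against Dicer1+/+ oviducts 14 were called higher and 0 lower (limma), beside 4.07% and 9.74% of all genes, and 7 were called higher when oviduct 5 was left out. Fibrillar genes called were 7 of 8 in both comparisons. Col1a1 differed by 3.54 ± 0.27 from Dicer1+/D1693N oviducts and by 2.32 ± 0.31 from Dicer1+/+ oviducts, and Col7a1 by 4.12 ± 0.25 and 3.88 ± 0.28. The type VI genes Col6a1, Col6a2 and Col6a3 were called against Dicer1+/D1693N oviducts (1.13, 1.44 and 1.06) and not against Dicer1+/+ oviducts (0.79, 0.85 and 0.66), and the difference itself is the comparison of oviduct genotypes given next, where none of the 3 was called.

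Between the oviduct genotypes no collagen gene was called in either direction by limma, beside 0.00515% of all genes called higher and 0.0154% called lower in Dicer1+/D1693N oviducts. At an unadjusted p under 0.05 there were 5 collagen genes, beside 2.75% of all genes, and all 5 were fibrillar and lower in Dicer1+/D1693N oviducts. They were Col1a1 (-1.22 ± 0.32), Col3a1 (-1.18 ± 0.34), Col1a2 (-1.04 ± 0.31), Col5a2 (-0.81 ± 0.33) and Col5a1 (-0.73 ± 0.24), and the limma adjusted p of each was 1. Col1a1 averaged 3358 ± 801 normalized counts in the 3 Dicer1+/D1693N oviducts (SD), against 9495 and 6209 in the Dicer1+/+ pair. For Col5a2 the genotypes overlapped, with 751 in oviduct 5 (Dicer1+/+) and 758 in oviduct 1 (Dicer1+/D1693N), while oviduct 4 was at 1656. They did not overlap for Col1a1, Col1a2, Col3a1 and Col5a1. Collagen reads were 0.365 ± 0.069% of all reads in the Dicer1+/D1693N oviducts and 0.670 and 0.480% in the Dicer1+/+ oviducts. Fibroblast markers summed to 8985, 6673 and 6239 in oviducts 1 to 3 and to 14387 and 6148 in oviducts 4 and 5, so oviduct 4 was highest for these markers as well, and their part was not tested.

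The UTR match was set beside the changes as a description, chosen after values of these data were known. Of the 24 collagen genes with TGGTGCT in the 3' UTR, 14 were called higher in tumors (median change 2.21). Of the 19 without it, 4 were called higher and 1 lower (median 0.45). Among all genes, with or without the match, 6.53% were called higher and 12.1% lower. The share called among all genes that carry the match was not tested, nor was any link to miR-29. In the basement membrane network all 6 genes carry the match and 2 were called. Col1a2, Col12a1 and Col14a1 were called higher with no such match, and Col9a2 was too. Class and match go together in this list and were not separated.

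Genes that handle collagen were taken from a list of 57, of which 56 were in the table. In tumors 26 of the 56 (46.4%) were called higher and 4 (7.14%) lower, against 6.53% and 12.1% of all genes, with a median change of 0.89 beside -0.05 over all genes. By step, 9 of 19 folding and modification genes were called higher, 0 of 4 export genes (limma; Sec23a and Mia3 had adjusted p of 0.00211 and 0.0369 with changes of 0.87 and -0.43), 5 of 8 propeptide cleavage genes, 3 of 5 crosslinking genes, 5 of 9 receptor genes and 4 of 11 fibril partners. Of the 4 called lower, 1 was a propeptide cleavage gene, 1 a receptor and 2 were fibril partners.

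Lox, the lysyl oxidase that crosslinks fibrils, had 4073, 3022, 3684 and 1909 normalized counts in tumors, against 258, 257, 272, 629 and 232 in oviducts (3.23 ± 0.31, adjusted p = 3.13e-05). Its relative Loxl2 had 3925, 2119, 3217 and 3307 in tumors, against 467, 358, 316, 629 and 315 in oviducts (2.87 ± 0.24, adjusted p = 1.31e-05). Both were far higher in every tumor than in any oviduct. P4ha3, a prolyl 4-hydroxylase subunit, had 275, 116, 328 and 292 in tumors, against 14.5, 12, 6, 29.1 and 38 in oviducts (2.85 ± 0.37, adjusted p = 0.000247). Bmp1, the protease that removes the C-terminal propeptide, had 2474, 2454, 3513 and 4304 in tumors, against 701, 646, 561, 979 and 542 in oviducts (2.17 ± 0.22, adjusted p = 5.07e-05). These 2 genes also showed no overlap between tumors and oviducts. Thbs2, a matricellular protein, had 1345, 1559, 1159.6 and 7742 in tumors, against 326, 407, 337, 414 and 250.1 in oviducts (2.54 ± 0.48, adjusted p = 0.0028), and Itga2, a collagen-binding integrin, had 231, 351, 124 and 3534 in tumors, against 102, 59.9, 57.7, 72.3 and 59.2 in oviducts (2.40 ± 0.75, adjusted p = 0.0343). Tumor 4 was by far the highest for both.

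The 4 genes called lower, a smaller share than among all genes, were Prelp, Ddr1, Omd and Pcolce2. Ddr1, a collagen-activated receptor kinase of epithelial cells, had 1650.0, 2340.4, 2369 and 1898 normalized counts in tumors, against 4976, 5417, 5434, 7105 and 6077 in oviducts (-1.49 ± 0.16, adjusted p = 8.67e-05), with no overlap. Prelp, a leucine-rich proteoglycan, had 393, 78.4, 47.3 and 846 in tumors, against 1562, 1449, 1160.2, 981 and 591 in oviducts (-2.33 ± 0.67, adjusted p = 0.0241). Omd had 14.6, 1.1, 0 and 8.4 in tumors, against 32.4, 40.4, 26.9, 8.6 and 31.3 in oviducts, and Pcolce2 had 2.9, 3.4, 6.8 and 51.5 in tumors, against 58, 49.4, 45.8, 44.8 and 25.7 in oviducts. The groups overlapped for Prelp, Omd and Pcolce2, with tumor 4 the highest tumor for Prelp and Pcolce2.

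Exons of other genes overlapped at most 6.1% of the exon bases of a collagen gene (Col9a3), and 5.6% for Col4a3. Whether the counting used strand is not stated, so reads in those stretches and at the shared start of Col4a1 and Col4a2 cannot be assigned to a gene with certainty.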

How the data were processed

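Poly-A RNA of 4 tumors and 5 oviducts was sequenced. Per the submitters' processing notes, FastQC 0.11.5, STAR 2.5.3a and HTSeq were used with GRCm38 (mm10). The authors deposited log2 values for 19435 genes, and their transformation, the annotation and the strandedness are not given in the sources used here. The shared floor of 3.427 and the spacing of values fit a variance-stabilizing transformation, and undoing it gave whole reads for 100% of values (tolerance 0.05 reads). From these reads normalized counts, shares and ratios (1 read added) were computed. The deposited log2 values were tested with limma 3.58.1 in R 4.3.3 (trended prior variance, two-sided), adjusted over all genes, after a test on simulated data. Ratios were tested by exact permutation, doubling the smaller tail. Transcript lengths and 3' UTRs came from GENCODE M21, and promoters and miRNAs from RefSeq (GRCm38.p6). Of the listed handling and marker genes, 6 were matched through an older symbol. Any collagen gene could be named; handling genes were named as up to 6 called per direction by size of change. Members, classes, lists and motifs were chosen with earlier results of these data known. Alternatives were another scaling, a filter at a mean log2 value of 5, limma-voom on recovered reads, a replicate block and leaving out each library.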

Additional observations from a re-analysis of the deposited data

Results flagged for a closer look

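On the log2 scale, 112 groups were checked (the collagen genes, their ratios and their share of reads, in tumors and in oviducts), and 4 held a library whose gap to the nearest other took up an unusually large part of the group's range. Chance alone marks about 5% of groups. Col13a1, a transmembrane collagen, was at 0 normalized counts in tumor 4, against 176 to 282.6 in the other tumors. Col26a1 was at 5.3 in tumor 4, against 1129.9 to 2136.5 in the other tumors. Col19a1 was at 17.5 in tumor 1 and at 0 in the other tumors. Col24a1 was at 23.6 in oviduct 4, against 9.0 to 11.2 in the other oviducts.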

How the results depend on the processing

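The 18 collagen genes called higher became 16 under limma-voom, 17 after quantile normalization, 18 with the filter on low values and 21 by adjusted p alone, and 16 to 22 when a library was left out, and the 1 called lower became 1 to 2. The all-gene median change was 0.078 with quantile normalization and -0.048 without it. Under the replicate block, which pairs libraries by number, 17 collagen genes were called higher and 1 lower. Deviations of same-numbered libraries correlated at 0.117, 0.061, -0.089 and 0.006, within the -0.146 to 0.139 of differently numbered ones. Such correlations cannot show whether the libraries were paired, which the labels do not state. Handling genes called lower numbered 4, and 2 after quantile normalization, 2 under the replicate block and 1 to 4 without a library. Against Dicer1+/D1693N oviducts the 18 genes called higher became 16 after quantile normalization, and the 1 called lower became 0. When a tumor or a Dicer1+/D1693N oviduct was left out, 14 to 23 were called higher and 0 to 1 lower. Against Dicer1+/+ oviducts, 7 to 20 genes were called higher and 0 to 1 lower without a library. Ratios past the threshold numbered 0. They numbered 2 when the permutation p counts differences by size whatever their sign, an alternative chosen after seeing the data. Without any 1 library they also numbered 0, but fewer splits are then possible and the smallest possible p is larger. That count therefore says little about how firm the result is. Called genes that lost the call were Col2a1 and Col8a1 (limma-voom and the replicate block), Col9a2 (limma-voom) and Col6a2 (quantile normalization). Genes without a call that changed sign were Col25a1 (-0.22) and Col6a5 (-0.62) under limma-voom and Col28a1 (0.019), Col4a3 (0.16) and Col9a3 (0.29) after quantile normalization, and the log2 difference of the Col11a1 to Col5a1 ratio was -0.23 from deposited values. Without a library, their values ranged as follows: Col10a1 from -0.37 to 0.82, Col11a2 from -0.05 to 0.20, Col19a1 from -0.29 to 0.29, Col23a1 from -1.24 to 0.25, Col25a1 from -0.57 to 0.93, Col4a3 from -0.37 to 0.41, Col6a5 from -0.67 to 0.96, Col6a6 from -0.11 to 1.49, Col9a3 from -0.48 to 0.29, the Col6a3 to Col6a1 ratio from -0.20 to 0.00067 and the Col11a1 to Col5a1 ratio from -0.039 to 0.55. The causes were not tested. Depth limits Col10a1, Col19a1 and Col22a1, which are at or near 0 reads in most libraries.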
